A study of Saccharomyces cerevisiae with 45 samples.

Results

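The first minutes of a severe heat shock were examined in budding yeast, Saccharomyces cerevisiae, by setting the 2 arrays of cells held for 5 min at 42 °C against the 2 arrays of cells kept at 25 °C. These 4 arrays are a small section of a series of 45 arrays in 18 groups, which followed messenger RNA at 37, 42 and 46 °C. All 4 come from the batch labelled A927, which holds 5 groups of 2 arrays each, namely 25 °C and 3, 5, 10 and 40 min at 42 °C. The comparison covered every probe set with a single gene symbol, one probe set per gene, which made 5449 genes. The arrays labelled 42 °C for 1 and 80 min belong to another batch, A961, and entered no fit.

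Every group, the 25 °C control included, carries the same strain and alleles. The strain is labelled BY4147, a haploid of mating type a (MATa) with the marker alleles his3D1, leu2D0, met15D0 and ura3D0. Cells grew in the rich medium YPD to an OD595 of 0.8 and were then shifted in a water bath. Cells of the 42 °C group had 5 min at that temperature and control cells had 0 min. For the comparison with a milder shift, 3 arrays at 37 °C for 5 min were set against 3 arrays at 25 °C, all of batch A863. Whether replicate arrays came from separate cultures is not labelled. A p-value here therefore reflects how far replicate arrays differ, and that spread may be only technical.

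Heat unfolds proteins, and yeast answers through separate transcription programmes. The heat shock factor Hsf1 drives genes for chaperones, which hold, refold or sort unfolded proteins. The paired factors Msn2 and Msn4, held back by protein kinase A in growing cells, drive a broad general stress programme of sugar storage, antioxidant and membrane genes. At the same time cells turn down the large set of genes that build ribosomes, among the most active genes of a growing yeast cell. Transcripts of that set are known to be short-lived.

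The deposited values are log2 intensities, so a difference of 1 is a 2-fold change. Within batch A927 array medians lay between 10.12 and 10.20, the brightest gene read 15.12 to 15.17 on all 10 arrays, and probe sets without a yeast target had a 95th percentile of 5.54, used here as the floor of unspecific signal. Values were normalised array to array by the authors. A fall therefore cannot be told apart from a rise smaller than that of other transcripts, nor fewer cells of a kind from less RNA per cell. Replicate arrays correlated at r = 0.999 over all genes at 5 min and at 0.9989 at 25 °C. The a-cell markers MFA1 and STE2 read 13.05 to 13.19 and 13.01 to 13.09 at 5 min, against 12.97 to 13.21 and 13.38 to 13.40 at 25 °C. The alpha-cell markers MF(ALPHA)1 and STE3 read 6.02 to 6.14 and 6.02 to 6.08 at 5 min, against 6.48 to 6.57 and 5.73 to 5.89 at 25 °C. The 7 a-cell genes had a median level of 11.31 at 5 min and 11.81 at 25 °C. For the 4 alpha-cell genes it was 6.32 and 6.59. Of the 7 a-cell genes 1 passed limma's test at 2-fold, ASG7, which was higher. Without a minimum size 4 of the 7 were lower at an adjusted p under 0.05. Of the 4 alpha-cell genes 0 passed at 2-fold, with 2 of those 4 at an unadjusted p under 0.05. URA3 and MET17, deleted in the labelled genotype, lay below the floor in both groups, and LEU2 read 5.61 and 5.69 at 5 min against 5.92 and 5.93 at 25 °C. HIS3 read 11.78 and 11.84 at 5 min against 11.49 and 11.49 at 25 °C and thus carried signal. The position of its probes relative to the deletion was not analysed here. The 3' minus 5' difference of ACT1, a measure of RNA integrity, was 0.924 and 0.713 at 5 min against 0.685 and 0.805 at 25 °C, with overlap. Ribosomal RNA probe sets were brighter after heat, at 12.77 and 12.60 against 11.85 and 11.97 for the 18S probe set and at 14.70 and 14.78 against 14.12 and 14.07 for the 25S probe set. Their part in the results was not tested.

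In what follows, rising and falling genes are those with an adjusted p under 0.05 by limma's test and a change of at least 2-fold. By that rule 462 of 5449 genes (8.48%) rose and 372 (6.83%) fell after 5 min at 42 °C, together 834 (15.3%). The 2 arrays at 5 min lay wholly above or below the 2 at 25 °C for all 834, as they did for 4790 of 5449 genes (87.9%) whatever the size of the change. The median change over all genes was -0.04 and its median standard error 0.09. Without a minimum size 3623 of 5449 genes passed the adjusted threshold, 1675 higher and 1948 lower. An unadjusted p under 0.05 was reached by 3765 of 5449. Counts of list members at these p-values are to be read beside those shares.

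The rises were larger than the falls and came from probe sets that were dimmer at 25 °C. Among the 462 rising genes the median change was 1.61, and 154 rose by at least 4-fold, 67 by at least 8-fold and 32 by at least 16-fold. Among the 372 falling genes the median was -1.36, with 63, 10 and 1 past the same sizes. The rising genes had a median level of 10.41 at 5 min and 8.38 at 25 °C, and 13 of them lay below the floor at 25 °C, where a change may be understated. The falling genes had a median level of 9.13 at 5 min and 10.75 at 25 °C. A probe set near the bright limit can rise little in reading, and a probe set near the floor can fall little. The part of these limits in the contrast was not tested.

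**Figure D1:**
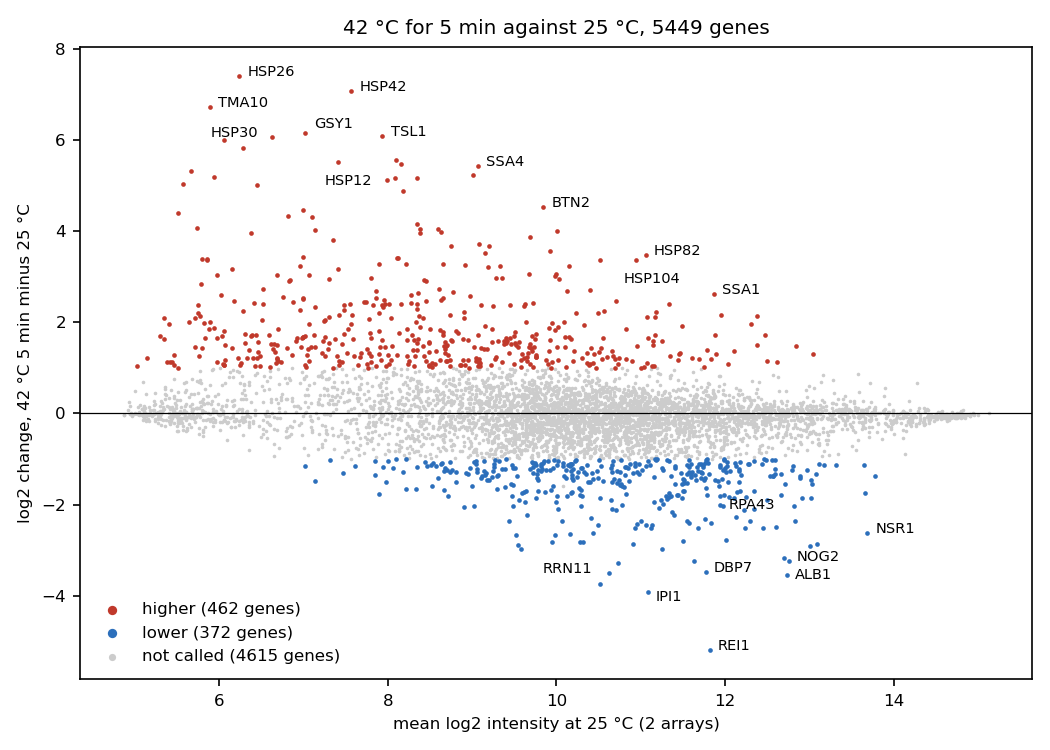
Log2 change after 5 min at 42 °C (vertical axis, 42 °C minus 25 °C) against the mean log2 intensity of the 2 arrays at 25 °C (horizontal axis), with 1 point per gene for 5449 genes. The 462 rising genes (red) reach a change of 7.41 and lie mostly at low to middle 25 °C levels, while the 372 falling genes (blue) reach -5.20 and lie mostly at middle to high levels.

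The list built around cytosolic proteins that keep aggregates in check had the highest median change of the 39 lists. It is named for the Hsp100 disaggregase, small heat shock proteins and sequestrases. Of its 7 measured genes 5 rose and 0 fell, with a median change of 3.95. HSP26 (YBR072W), a small heat shock protein that binds unfolding proteins, read 13.67 and 13.62 at 42 °C, against 6.24 and 6.23 at 25 °C. HSP42 (YDR171W), the small heat shock protein active in growing cells, read 14.63 and 14.63 at 42 °C, against 7.69 and 7.44 at 25 °C. Both genes were dim on the unheated arrays and bright on both heated ones. HSP26 rose by 7.41 ± 0.10 (SE, n = 2 and 2, 169.7-fold, limma adjusted p = 1.03e-31) and HSP42 by 7.06 ± 0.10 (133.8-fold, adjusted p = 2.78e-31). HSP42 lay within 1 unit of the brightest gene on the heated arrays, where intensity scales flatten. So did other genes described below, among them BTN2, HSP104, SSA4, SSA1 and HSP82, and their rises may be understated.

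BTN2 (YGR142W), which gathers misfolded proteins into deposits, read 14.40 and 14.36 at 42 °C, against 9.83 and 9.85 at 25 °C, a rise of 4.54 ± 0.12. Its relative CUR1 read 12.31 and 12.35 at 42 °C, against 8.38 and 8.38 at 25 °C, a rise of 3.95 ± 0.08. HSP104 (YLL026W), the disaggregase that pulls single proteins out of aggregates, read 14.28 and 14.33 at 42 °C, against 10.95 and 10.94 at 25 °C. It was already bright in unheated cells and rose by 3.36 ± 0.06, or 10.25-fold. The other 2 measured genes of the list, placed beside these classes, were HSP31 and SNO4. Their changes of 0.58 ± 0.07 and 0.55 ± 0.16 lay below the 2-fold limit. The probe set of SNO4 matches more than one sequence.

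Cytosolic Hsp70 proteins bind exposed stretches of unfolded chains, and nucleotide exchange factors reset them. Of the 8 measured genes of this list 5 rose and 0 fell, with a median of 2.17. The 4 Hsp70 genes of the SSA family gave values far apart. SSA4 (YER103W), the stress form, read 14.51 and 14.50 at 42 °C, against 9.15 and 8.99 at 25 °C, and rose by 5.43 ± 0.08 (43.19-fold). SSA1 read 14.52 and 14.46 at 42 °C, against 11.88 and 11.85 at 25 °C, and rose by 2.62 ± 0.07. SSA3, another stress form, read 11.58 and 11.41 at 42 °C, against 9.11 and 9.11 at 25 °C, and rose by 2.38 ± 0.14. SSA2, the main constitutive form, read 14.71 and 14.73 at 42 °C, against 14.68 and 14.71 at 25 °C, a difference of 0.03 ± 0.04 that did not pass the test (adjusted p = 0.576). SSA2 lay near the brightest gene of the arrays in both groups, where intensity scales flatten, so a rise may be understated. SSA1 and SSA2 are close in sequence, so signal of one may reach the other's probes, and how much was not tested.

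Among the exchange factors SSE2 rose by 3.27 ± 0.14, reading 11.24 and 11.09 at 42 °C, against 8.001 and 7.79 at 25 °C. Its constitutive counterpart SSE1 differed by 0.27 ± 0.06 and did not reach 2-fold. FES1, which releases substrate from Hsp70 during heat, rose by 1.96 ± 0.06. The Hsp40 genes, whose products feed clients to Hsp70, moved both ways: of 11 measured, 2 rose and 3 fell, with a median of -0.08. APJ1 rose by 3.98 ± 0.10, with 12.62 and 12.60 at 42 °C, against 8.62 and 8.64 at 25 °C. SIS1, an essential Hsp40, rose by 1.47 ± 0.06, while the abundant YDJ1 gave 0.37 ± 0.05 and did not reach 2-fold. The genes that fell were JJJ3 (-2.98 ± 0.18), JJJ2 (-1.65 ± 0.15) and JJJ1 (-1.25 ± 0.14). JJJ3 is known for the diphthamide modification of elongation factor and JJJ1 for the recycling of a ribosome assembly factor.

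Hsp90 helps signalling proteins reach their active form, and yeast has a stress-induced and a constitutive gene for it. HSP82 (YPL240C), the inducible Hsp90, read 14.53 and 14.52 at 42 °C, against 11.05 and 11.07 at 25 °C, and rose by 3.47 ± 0.05 (11.06-fold). HSC82, its constitutive and nearly identical partner, read 14.43 and 14.43 at 42 °C, against 14.28 and 14.31 at 25 °C, a difference of 0.13 ± 0.04 far below 2-fold. HSC82 too was bright in both groups, where a rise may be understated. Cross-signal between HSP82 and HSC82 was not tested. Of 14 Hsp90 genes and co-chaperones 4 rose and 0 fell, with a median of 0.15. The risers beside HSP82 were AHA1, which speeds the Hsp90 ATPase (1.91 ± 0.08), the prolyl isomerase CPR6 (1.51 ± 0.05) and STI1, which links Hsp70 to Hsp90 (1.29 ± 0.05).

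In mitochondria 2 of 12 chaperone and protease genes rose and 1 fell. HSP78 (YDR258C), the mitochondrial disaggregase, read 13.65 and 13.65 at 42 °C, against 7.92 and 8.26 at 25 °C, and rose by 5.56 ± 0.09 (47.25-fold). The 25 °C arrays differed by more than the heated ones, yet all lay far below them. MDJ1, an Hsp40 of the matrix, rose by 2.41 ± 0.10. MGE1, the exchange factor of matrix Hsp70, fell by 1.24 ± 0.10, reading 11.51 and 11.60 at 42 °C, against 12.75 and 12.84 at 25 °C. The folding chamber genes HSP60 and HSP10 changed by 0.66 ± 0.05 and 0.83 ± 0.04, and SSC1, the matrix Hsp70, by 0.38 ± 0.06, each past the adjusted threshold but below 2-fold.

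Chaperones that serve newly made proteins held few changes of 2-fold or more. By limma's test 0 of 7 ribosome-associated chaperone genes rose and 0 fell, with a median of -0.03 and 1 at an unadjusted p under 0.05 (BTT1, 0.28 ± 0.11). Their median level was 14.07 at 42 °C and 14.17 at 25 °C, near the brightest gene, where changes are compressed. Of 14 genes of the chaperonin TRiC and prefoldin, which fold actin and tubulin, 0 rose and 0 fell by 2-fold. Their values were negative for 14 of 14, with a median of -0.27, 12 at an unadjusted and 11 at an adjusted p under 0.05. Over all 5449 genes the value was negative for 2934, with 3765 at an unadjusted p under 0.05. At an adjusted p under 0.05, 1948 were lower. The TRiC and prefoldin genes thus went lower by small amounts in a larger share. In the endoplasmic reticulum 1 of 17 folding genes rose, the oxidase gene ERO1, by 1.33 ± 0.09, and 0 fell. The list had a median of 0.14.

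**Figure D2:**
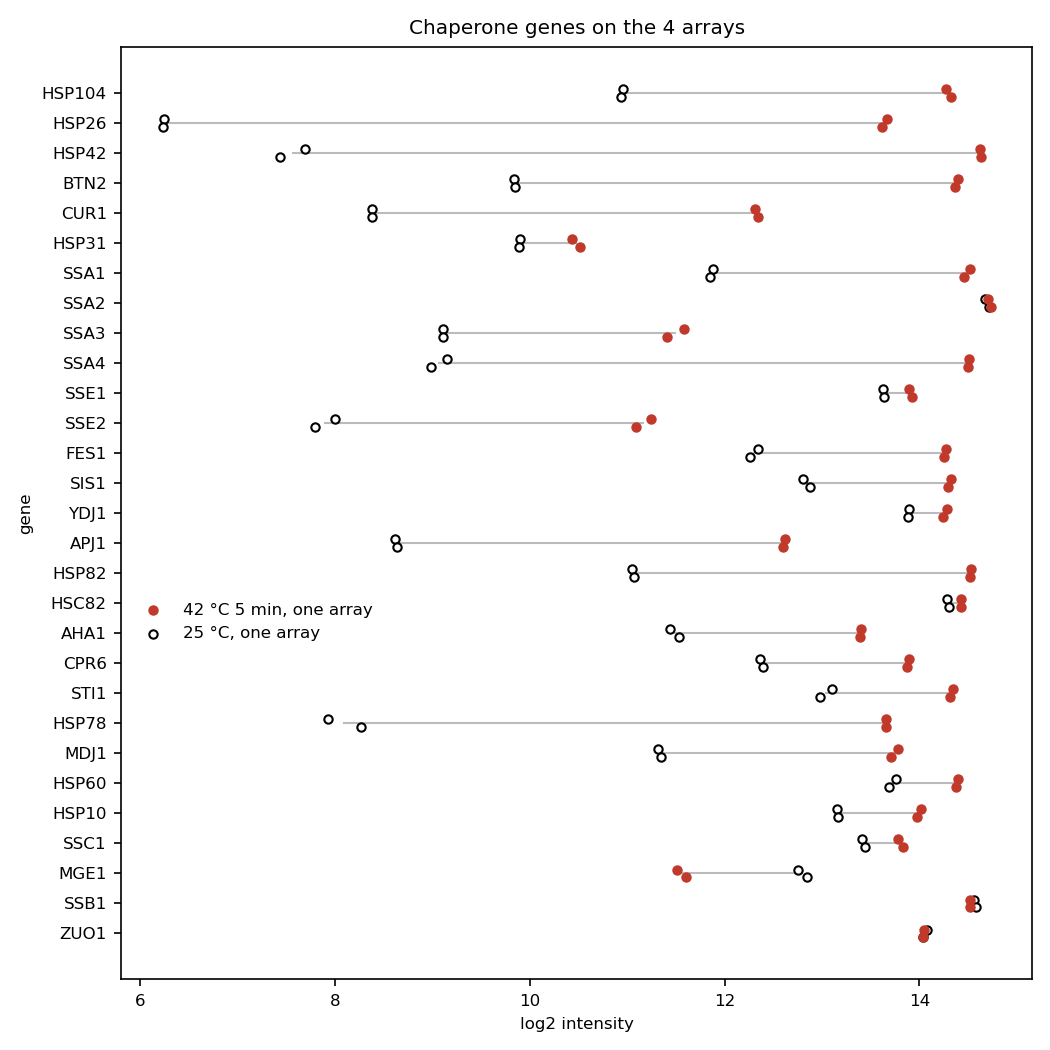
Log2 intensity (horizontal axis) of 29 chaperone genes on each array, with filled red points for the 2 arrays at 42 °C 5 min, open points for the 2 arrays at 25 °C and a grey line between the group means. Stress-induced forms (HSP26, HSP42, SSA4, HSP82, HSP78) are far brighter at 42 °C than at 25 °C, constitutive forms (SSA2, HSC82, SSB1) are bright in both groups, and MGE1 is lower at 42 °C.

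The general stress genes controlled by Msn2 and Msn4 moved almost as a block. Of 39 measured, 32 rose and 0 fell, with a median change of 2.46 beside -0.04 over all genes. TMA10 (YLR327C), a small protein found with ribosomes, read 12.72 and 12.52 at 42 °C, against 5.81 and 5.97 at 25 °C, and rose by 6.73 ± 0.11 (106.2-fold). HSP30, a membrane protein that restrains the plasma membrane proton pump, read 12.69 and 12.67 at 42 °C, against 6.58 and 6.66 at 25 °C, and rose by 6.06 ± 0.09. CYC7, the stress form of cytochrome c, read 12.13 and 12.08 at 42 °C, against 6.23 and 6.35 at 25 °C, and rose by 5.82 ± 0.10. In unheated cells these 3 genes read 5.81 to 6.66, not far above the floor of 5.54, and the groups lay far apart.

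HSP12 (YFL014W), which stabilises membranes, read 13.25 and 12.96 at 42 °C, against 7.93 and 8.05 at 25 °C, a rise of 5.11 ± 0.21. Its standard error was among the larger ones of the named rises. RTC3 rose by 5.51 ± 0.15, the wall protein gene SPI1 by 5.17 ± 0.12, SOL4 of the pentose phosphate pathway by 5.03 ± 0.18 and DDR2 by 5.00 ± 0.16. Outside the lists, the phosphatase gene PHM8 rose by 5.32 ± 0.08, RTS3 by 5.16 ± 0.10 and RGI1, linked to respiratory growth, by 4.87 ± 0.10.

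Regulators of stress transcription showed a mixed picture. HSF1 itself read 10.05 and 9.91 at 42 °C, against 9.96 and 9.98 at 25 °C, a difference of 0.01 ± 0.12 (adjusted p = 0.934). MSN2 and MSN4 gave 0.50 ± 0.08 and 0.70 ± 0.08, past the adjusted threshold but below 2-fold. Of 15 factors and regulators 7 rose and 2 fell, with a median of 0.70. RPN4, the activator of proteasome genes, read 13.41 and 13.40 at 42 °C, against 11.14 and 11.22 at 25 °C, and rose by 2.22 ± 0.08. USV1 rose by 3.38 ± 0.17, CIN5 by 3.20 ± 0.11, MGA1 by 2.00 ± 0.22 and GIS1 by 1.87 ± 0.09. XBP1, a repressor, rose by 1.69 ± 0.21 over a 25 °C level below the floor. The pair that fell, named after their values were seen, were SFL1 (-1.31) and SKN7 (-1.04). Among 15 genes of the Ras and protein kinase A pathway and its antagonists 3 rose and 1 fell: YAK1, a kinase that opposes protein kinase A, by 2.37 ± 0.10, the kinase subunit gene TPK2 by 1.52 ± 0.07, the adenylate cyclase gene CYR1 by 1.03 ± 0.07, while RAS1 fell by 1.12 ± 0.13.

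Reserve sugars were the metabolic lists with the most called members in proportion. Of 10 genes of trehalose synthesis and breakdown 8 rose and 0 fell, with a median of 1.97, and of 11 glycogen genes 9 rose and 0 fell, with a median of 2.61. Trehalose is a sugar that protects proteins during heat. TSL1 (YML100W), a regulatory subunit of trehalose synthase, read 14.05 and 13.97 at 42 °C, against 7.95 and 7.93 at 25 °C, and rose by 6.07 ± 0.09 (67.4-fold). The catalytic subunit genes TPS1 and TPS2 rose by 2.47 ± 0.08 and 3.06 ± 0.11. TPS3, the other regulatory subunit, gave 0.99 ± 0.07, just under the limit. The trehalase genes NTH1, NTH2 and ATH1, whose products break the sugar down, rose as well, by 2.35 ± 0.10, 1.58 ± 0.10 and 1.59 ± 0.08. Of the enzymes that supply the precursors, PGM2 rose by 4.17 ± 0.12 and UGP1 by 1.14 ± 0.07, and PGM1 gave 0.14 ± 0.08.

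Genes for making and for using glycogen rose side by side. GSY1 (YFR015C), a glycogen synthase, read 13.23 and 13.13 at 42 °C, against 7.02 and 7.03 at 25 °C, and rose by 6.16 ± 0.11 (71.47-fold). GPH1, the phosphorylase that breaks glycogen down, read 11.36 and 10.89 at 42 °C, against 5.89 and 5.98 at 25 °C, and rose by 5.19 ± 0.13. The heated arrays of GPH1 lay further apart than those of GSY1, and neither gene's groups overlapped. The second synthase gene GSY2 rose by 3.40 ± 0.15, the branching enzyme gene GLC3 by 3.28 ± 0.11 and the phosphatase targeting subunit gene GAC1 by 3.38 ± 0.18. GIP2, GLG1, GDB1 and PIG2 also rose, by 2.61, 2.40, 1.33 and 1.32. GLG2 and PIG1 gave -0.07 and -0.77.

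Other metabolic and protective genes changed in fewer members. Of 25 genes for hexose transporters, sugar kinases and glycolytic isozymes 7 rose and 1 fell, with a median of 0.08. HXK1, a hexokinase, rose by 5.47 ± 0.10, the glucokinase gene GLK1 by 3.87 ± 0.10 and the transporter gene HXT7 by 3.57 ± 0.10, the last on a probe set shared with other sequences. HXT1, named after its value was seen, fell by 1.37. In glycerol metabolism 3 of 12 rose: GPP2 by 2.41 ± 0.09, GPD1 by 2.11 ± 0.10 and GUT2 by 2.10 ± 0.11. Of 27 antioxidant genes 5 rose and 1 fell. CTT1, the cytosolic catalase, read 11.50 and 11.29 at 42 °C, against 7.13 and 7.07 at 25 °C, and rose by 4.30 ± 0.18. The peroxisomal catalase gene CTA1 rose by 2.05 ± 0.12 and the mitochondrial peroxiredoxin gene PRX1 by 1.66 ± 0.08, whereas GPX2 fell by 1.19 ± 0.11. Of 47 genes of the citric acid cycle and respiratory chain 8 rose and 0 fell, with a median of 0.12. COX5B, the low-oxygen form of a cytochrome oxidase subunit, rose by 2.60 ± 0.09, the NADH dehydrogenase gene NDI1 by 1.84 ± 0.08 and the citrate synthase gene CIT1 by 1.59 ± 0.06.

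Protein disposal genes were described as proteasome, ubiquitin and autophagy lists. By limma's test 0 of 33 proteasome subunit genes rose and 0 fell, with a median of -0.04 and 7 at an unadjusted p under 0.05. Of 18 genes for polyubiquitin, Cdc48 and quality-control ligases 1 rose, UBI4 (YLL039C), the polyubiquitin gene, which read 13.39 and 13.39 at 42 °C, against 10.18 and 10.12 at 25 °C. Its rise was 3.24 ± 0.08, or 9.45-fold. Of 23 autophagy genes 5 rose and 0 fell, with a median of 0.65 and 17 higher at an adjusted p under 0.05. ATG41 rose by 5.23 ± 0.11, reading 14.24 and 14.26 at 42 °C, against 9.15 and 8.88 at 25 °C. ATG8, whose product coats the growing autophagosome, rose by 2.98 ± 0.11, and ATG39 and ATG40, receptors for parts of the endoplasmic reticulum and nuclear envelope, by 1.85 ± 0.10 and 1.54 ± 0.08.

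**Figure D3:**
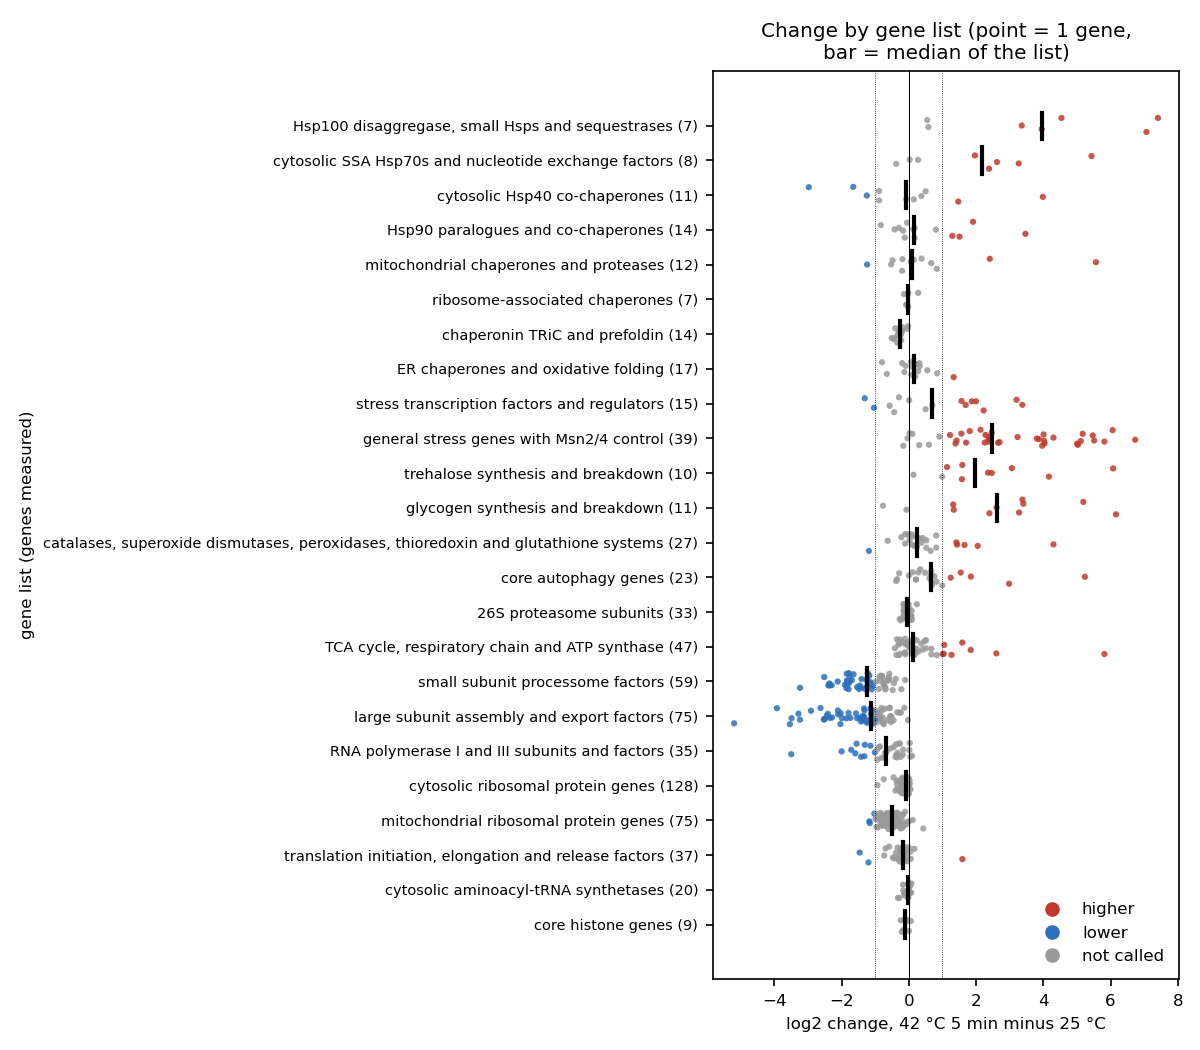
Log2 change (horizontal axis, 42 °C 5 min minus 25 °C) of each member of 24 gene lists, with the number of measured genes in brackets, a black bar at the list's median and dotted lines at 2-fold. Genes that rose are red, genes that fell are blue and the others are grey. The Msn2/4, trehalose and glycogen lists lie mostly to the right, the ribosome assembly lists entirely to the left of 0, and the ribosomal protein and proteasome lists around 0.

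The genes that build ribosomes were lower in heated cells across the whole list, while no gene for the cytosolic ribosome's own proteins reached a 2-fold change. Of 134 ribosome assembly factors 82 fell and 0 rose, the value was negative for 134 of 134, and the median was -1.20. Both subunits were involved: 36 of 59 small subunit processome genes fell, with a median of -1.23, and 46 of 75 large subunit assembly and export genes, with a median of -1.14. By limma's test 0 of 128 cytosolic ribosomal protein genes rose and 0 fell by 2-fold, with a median of -0.09. Of the 128, 50 were at an unadjusted p under 0.05 and 45 were lower at an adjusted p under 0.05. Over all 5449 genes those counts were 3765 and 1948, so the list did not stand out by them. These genes read a median of 14.42 at 42 °C, close to the bright limit of the arrays, where changes are compressed. Of 75 mitochondrial ribosomal protein genes 3 fell and 0 rose, with a median of -0.51 and 67 lower at an adjusted p under 0.05.

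Large subunit factors held the largest falls. REI1 (YBR267W), which recycles export factors from new large subunits in the cytosol, read 6.75 and 6.50 at 42 °C, against 11.78 and 11.86 at 25 °C. It fell by 5.20 ± 0.19 (36.63-fold lower, adjusted p = 7.27e-21), towards the floor of 5.54. ALB1, one of the export factors that Rei1 releases, read 9.18 and 9.21 at 42 °C, against 12.75 and 12.72 at 25 °C, and fell by 3.54 ± 0.24. IPI1 and IPI3, partners in a nuclear assembly complex, fell by 3.92 ± 0.20 and 3.28 ± 0.17. DBP7, an RNA helicase, read 8.24 and 8.33 at 42 °C, against 11.79 and 11.76 at 25 °C, and fell by 3.49 ± 0.11. The GTPase gene NOG2 read 9.44 and 9.59 at 42 °C, against 12.81 and 12.69 at 25 °C, and fell by 3.24 ± 0.17. In none of these genes did the groups overlap.

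For the small subunit, SOF1 read 8.39 and 8.39 at 42 °C, against 11.63 and 11.62 at 25 °C, and fell by 3.23 ± 0.19. UTP6, DBP8, UTP25, UTP9 and FAL1, all processome members, fell by 2.52, 2.39, 2.36, 2.35 and 2.29. UTP13 fell by 2.12 ± 0.15 and the helicase gene DBP3 of the large subunit by 1.42 ± 0.13. RCL1, an endonuclease of the same pathway, gave -0.75 ± 0.09 and did not reach 2-fold. NSR1, the yeast nucleolin, read 10.98 and 11.14 at 42 °C, against 13.70 and 13.67 at 25 °C, and fell by 2.63 ± 0.31.

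RNA polymerases I and III transcribe ribosomal and transfer RNA, and 10 of their 35 subunit and factor genes fell while 0 rose, with a median of -0.67. RRN11 (YML043C), part of the core factor that places polymerase I on ribosomal DNA, read 7.13 and 7.13 at 42 °C, against 10.66 and 10.58 at 25 °C, and fell by 3.495 ± 0.17. The other core factor genes RRN7 and RRN6 fell by 1.55 ± 0.09 and 1.42 ± 0.07. The polymerase I subunit genes RPA43 and RPA12 fell by 2.00 ± 0.08 and 1.71 ± 0.13, and UAF30, of the upstream activating factor, by 1.59 ± 0.16. All 3 core factor genes of the list therefore fell. TOD6, a repressor of ribosome assembly genes, fell itself by 2.01 ± 0.16, reading 8.73 and 8.81 at 42 °C, against 10.74 and 10.81 at 25 °C. It was the 1 gene called among 13 regulators of ribosome gene transcription.

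The 20 largest falls also held genes outside the lists, with various known roles. DUS1, which makes dihydrouridine in transfer RNA, fell by 3.74 ± 0.18, with 6.75 and 6.81 at 42 °C, against 10.59 and 10.45 at 25 °C. HMT1, an arginine methyltransferase of RNA-binding proteins, fell by 3.16 ± 0.20, NCS2, which thiolates transfer RNA, by 2.98 ± 0.14, BMT6, which methylates ribosomal RNA, by 2.89 ± 0.13. TRM2, a transfer RNA methyltransferase, fell by 2.81 ± 0.15. SHQ1, needed to assemble snoRNA particles that guide pseudouridine formation, fell by 2.82 ± 0.15. CIC1 and EFG1, both known from ribosome assembly but outside these lists, changed by -2.91 ± 0.19 and -2.86 ± 0.26. IBD2, a spindle checkpoint gene, and GFD2 changed by -2.82 ± 0.23 and -2.81 ± 0.15.

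Few genes of translation reached 2-fold. Of 37 initiation, elongation and release factor genes 1 rose and 2 fell, with a median of -0.18 and 21 lower at an adjusted p under 0.05. ANB1, the low-oxygen form of initiation factor eIF5A, rose by 1.59 ± 0.08, while NIP1, a subunit of eIF3, fell by 1.46 ± 0.11 and the helicase gene DED1 by 1.20 ± 0.14. By limma's test 0 of 20 cytosolic aminoacyl-tRNA synthetase genes rose and 0 fell, with a median of -0.02 and 5 at an unadjusted p under 0.05. Of 28 genes of messenger RNA decay 1 rose, the decapping activator gene EDC2, by 3.53 ± 0.08. The other members of that list had mostly small negative values, with a median of -0.31 and 18 lower at an adjusted p under 0.05.

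In the cell cycle list 5 of 23 genes fell and 1 rose. The S-phase cyclin genes CLB6 and CLB5 fell by 1.36 ± 0.09 and 1.24 ± 0.11, the cyclin inhibitor gene FAR1 by 1.24 ± 0.14, the replication clamp gene POL30 by 1.15 ± 0.07 and the G1 cyclin gene CLN1 by 1.03 ± 0.08. CLN1 lost its call without replicate 2 of the 42 °C arrays, at -0.97. The related CLN2 gave -0.78 ± 0.11 and CLN3 0.36 ± 0.12. RNR3, a ribonucleotide reductase gene known as a DNA damage target, rose by 2.34 ± 0.13. By limma's test 0 of 9 core histone genes rose and 0 fell, with 4 at an unadjusted p under 0.05, and the actin gene ACT1 gave 0.07 ± 0.04.

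Of 33 cell wall genes 8 rose and 0 fell, with a median of 0.14. Apart from SPI1 these were led by ROM1 (2.54 ± 0.10), an activator of the small G protein Rho1, SDP1 (2.43 ± 0.13), a phosphatase of the wall integrity kinase, and the sensor gene MTL1 (1.73 ± 0.14). In purine and nucleotide synthesis 3 of 24 genes fell and 0 rose: the salvage enzyme genes HPT1 (-2.86 ± 0.24) and AAH1 (-1.86 ± 0.11) and ADE4, the entry step of purine synthesis (-1.03 ± 0.09). ADE4 lost its call without replicate 1 of the 42 °C arrays, at -0.996. In sulfur assimilation 4 of 23 rose and 1 fell. MET28, an activator of the pathway, rose by 3.04 ± 0.11, and SAM1, which makes S-adenosylmethionine, fell by 1.34 ± 0.10. MET14 rose by 1.13 ± 0.09, and MET3 and MUP1, at 1.05 and 1.00, lost their calls when replicate 2 of the 25 °C arrays was left out (0.99 and 0.985). MUP1 also lost its call without replicate 1 of the 42 °C arrays, at 0.996. By limma's test 0 of 23 ergosterol genes rose and 0 fell, with 11 at an unadjusted p under 0.05.

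The step to 5 min was then set against the neighbouring times of the same batch. Between 3 and 5 min 54 genes rose (0.991%) and 27 fell (0.496%), together 81 (1.49%), by limma's test with the same limits. Between 5 and 10 min 127 rose (2.33%) and 116 fell (2.13%), together 243 (4.46%). These steps share the 5 min arrays with each other, so their values are given side by side and not as support of each other.

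For several chaperone genes the step between 3 and 5 min was small. HSP42 averaged 7.57 at 25 °C, 14.52 at 3 min, 14.63 at 5 min, 14.88 at 10 min and 14.99 at 40 min. BTN2 averaged 9.84, 14.39, 14.38, 14.59 and 14.82 over the same order, and HSP104 averaged 10.95, 14.36, 14.30, 14.59 and 14.77. The differences of 5 min from 3 min were 0.12 ± 0.10 for HSP42, -0.01 ± 0.12 for BTN2 and -0.06 ± 0.06 for HSP104, and none passed the test, at levels near the bright limit. CUR1 averaged 12.33 at 5 min and 12.60 at 3 min, a difference of -0.27 ± 0.08 that passed the adjusted threshold (0.0149) but not 2-fold.

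Of the 39 general stress genes 7 rose between 3 and 5 min and 15 between 5 and 10 min, and 0 fell in either step. HSP26, of the small heat shock protein list and not of this one, averaged 13.64 ± 0.03 at 5 min and 12.54 ± 0.12 at 3 min (SD, n = 2 each). It rose by 1.10 ± 0.10 in that step, and its step of 0.93 ± 0.10 between 5 and 10 min did not reach 2-fold. HSP30 rose by 1.26 ± 0.09 between 3 and 5 min and by 1.38 ± 0.09 between 5 and 10 min, and DDR2 by 1.16 ± 0.16 and 1.39 ± 0.16. HSP12 gave 0.61 ± 0.21 in the earlier step, below 2-fold, and rose by 1.05 ± 0.21 in the later. RTC3 gave 0.11 ± 0.15 in the earlier step and did not pass the test. For SSA3, of the Hsp70 list, the corresponding values were 0.78 ± 0.14, below 2-fold, and a rise of 1.48 ± 0.14.

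PHM7, a membrane protein gene, had the largest rise between 3 and 5 min. It averaged 10.34 ± 0.14 at 5 min and 7.38 ± 0.05 at 3 min (SD, n = 2 each), a rise of 2.96 ± 0.24. Its 25 °C arrays read 6.47 and 6.28. DIA1 rose by 2.29 ± 0.15, HXT5, a glucose transporter of starved cells, by 2.27 ± 0.23, CMK2, a calmodulin-dependent kinase, by 1.54 ± 0.13, LEE1 by 1.51 ± 0.14 and RTT105 by 1.46 ± 0.10. RTT105 averaged 8.24 at 3 min, not above its 8.43 at 25 °C, and 9.69 at 5 min. The largest rises between 5 and 10 min were SIP4, an activator of gluconeogenic genes (2.40 ± 0.10), OSW2 (2.38 ± 0.13), IRC10 (2.18 ± 0.14), HXT5 (2.12 ± 0.23), ECM8 (2.05 ± 0.12) and PHM7 (2.00 ± 0.24). SIP4 and ECM8 lay below the floor at 25 °C, and their levels at 5 min were 7.35 and 6.57. ECM8 rose by 1.14 ± 0.12 at 5 min against 25 °C and lost that call without replicate 2 of the 42 °C arrays (0.98).

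The falling genes also differed in when they fell. REI1 averaged 6.62 ± 0.18 at 5 min and 8.93 ± 0.03 at 3 min (SD, n = 2 each) and fell by 2.31 ± 0.19. RRN11 fell by 1.91 ± 0.17 in that step, SOF1 by 1.86 ± 0.19, IPI1 by 1.80 ± 0.20, ALB1 by 1.71 ± 0.24 and DUS1 by 1.63 ± 0.18. In contrast GFD2 averaged 10.32 at 25 °C, 7.46 at 3 min and 7.51 at 5 min, and its step of 0.04 ± 0.15 did not pass the test. RRN11 averaged 7.13 at 5 min, 7.91 at 10 min and 9.28 at 40 min, and its step between 5 and 10 min, 0.78 ± 0.17, passed the adjusted threshold (0.000319) but not 2-fold.

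The largest falls between 5 and 10 min were in genes for polymerase I and ribosome assembly. RPA43, the polymerase I subunit gene, averaged 7.19 ± 0.17 at 10 min and 9.95 ± 0.12 at 5 min (SD, n = 2 each), so it fell by 2.75 ± 0.08. ECM1, ARX1 and RPF2, of large subunit assembly and export, fell by 2.46 ± 0.16, 2.26 ± 0.12 and 2.40 ± 0.17, RRS1, the partner of RPF2, by 2.21 ± 0.13 and NSR1 by 2.20 ± 0.31. Over all 134 assembly factors 11 fell between 3 and 5 min and 46 between 5 and 10 min, with 0 rising in either step. RCL1 averaged 11.74 at 10 min and 10.78 at 5 min, a difference of 0.96 ± 0.09 just below 2-fold.

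**Figure D4:**
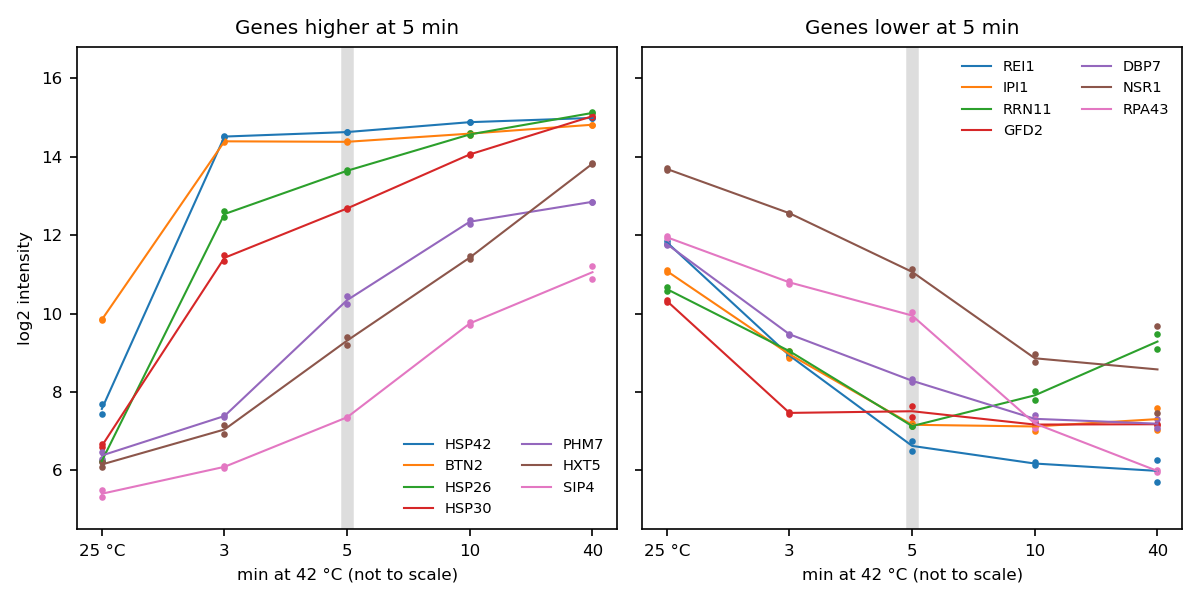
Log2 intensity (vertical axis) over time at 42 °C in batch A927 for 7 genes higher at 5 min (left) and 7 genes lower at 5 min (right), with points for single arrays, lines through group means, 25 °C at the left end and the 5 min group shaded. HSP42 and BTN2 change little after 3 min, PHM7, HXT5 and SIP4 climb past 5 min, GFD2 is close to its lowest level by 3 min, and RPA43 and NSR1 drop further between 5 and 10 min.

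The severe and the mild shift were compared as changes, each against its own 25 °C control, because the 37 °C arrays belong to a batch whose values have another distribution. The difference of the signed changes, 42 °C minus 37 °C, was positive and at least 2-fold for 159 genes (2.92%) after 5 min and negative for 24 (0.44%), together 183 (3.36%), by limma's test of the difference. The 24 became 46 under quantile normalisation, and without a minimum size the counts were 841 and 866. A positive difference also arises where a gene fell less at 42 °C, as for TOD6, which changed by -2.01 ± 0.16 at 42 °C and by -3.40 ± 0.13 at 37 °C. Values were taken for 14 chosen genes, of which 6 passed. HSP42 changed by 7.06 ± 0.10 at 42 °C and by 4.31 ± 0.08 at 37 °C, a difference of 2.76 ± 0.13. GSY1 changed by 6.16 ± 0.11 at 42 °C and by 4.01 ± 0.09 at 37 °C, a difference of 2.15 ± 0.15. TSL1, HSP30, BTN2 and HSP78 gave differences of 1.93 ± 0.11, 1.64 ± 0.11, 1.55 ± 0.16 and 1.39 ± 0.12. All 6 had the larger change at 42 °C. The 14 were chosen with earlier results known and are mostly genes raised by heat. XBP1, outside the 14, rose by 1.69 ± 0.21 at 42 °C and by 3.30 ± 0.17 at 37 °C, a difference of -1.61 ± 0.27. Of the 134 assembly factors 82 fell at 42 °C (median -1.20) and 105 at 37 °C (median -1.43). Over all 5449 genes 372 and 324 fell.

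The remaining 8 genes did not reach a 2-fold difference. HSP26 changed by 7.41 ± 0.10 at 42 °C and by 7.01 ± 0.08 at 37 °C, a difference of 0.40 ± 0.13 (adjusted p = 0.0184). SSA4 differed by 0.36 ± 0.11, CTT1 by 0.73 ± 0.23, HSP104 by 0.96 ± 0.08 and RPN4 by 0.95 ± 0.11, all positive and past the adjusted threshold. SSA4 and HSP104 lay near the bright limit at 42 °C, where a difference may be understated. HSP12 changed by 5.11 ± 0.21 at 42 °C and by 5.55 ± 0.17 at 37 °C, a difference of -0.44 ± 0.27 that did not pass (adjusted p = 0.223). Of the assembly genes, NOG2 changed by -3.24 ± 0.17 at 42 °C and by -3.81 ± 0.14 at 37 °C, a difference of 0.57 ± 0.22 (adjusted p = 0.0446). DBP7 changed by -3.49 ± 0.11 at 42 °C and by -3.34 ± 0.09 at 37 °C, a difference of -0.15 ± 0.14 (adjusted p = 0.44). The difference of temperature cannot be told apart from the difference of batch beyond what each control removes.

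**Figure D5:**
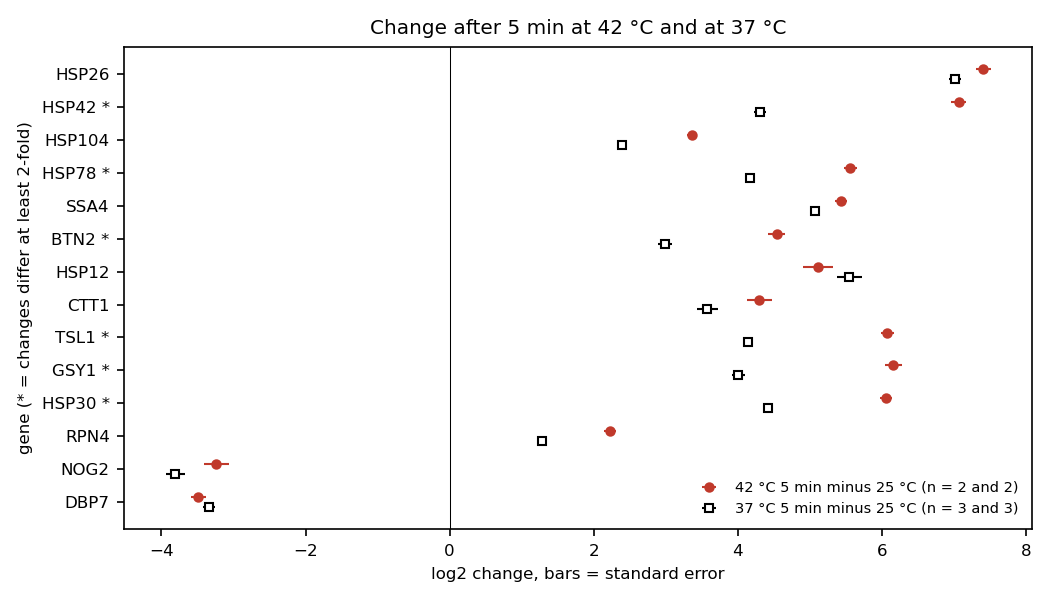
Log2 change after 5 min for 14 genes, with red points for 42 °C minus 25 °C (n = 2 and 2 arrays), open squares for 37 °C minus 25 °C (n = 3 and 3) and bars for the standard error of the fit. A star marks the 6 genes whose changes differed by at least 2-fold with an adjusted p under 0.05. HSP42, GSY1 and TSL1 lie furthest apart, while HSP26, SSA4, HSP12, NOG2 and DBP7 lie close together.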

How the data were processed

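Messenger RNA was measured on 3' expression arrays from 150 ng of total RNA. The authors deposited log2 intensities per probe set, and the submitters' processing notes name RMA and affy. Their versions and the genome build were not given in the sources used here, and no coordinates are printed. RMA makes arrays alike in distribution and compresses changes near background and near the bright limit. The table held 5900 probe sets on 45 arrays: 137 controls, 5498 with 1 gene symbol and 265 others without one. For 47 genes with several probe sets the brightest was used. A mean per group was fitted to the 41 arrays outside batch A961 with limma 3.58.1 in R 4.3.3 (lmFit, eBayes, 25 residual degrees of freedom). Tests were two-sided and unpaired, with Benjamini-Hochberg adjustment over 5449 genes. Figures after ± are standard errors of that fit unless marked SD. Identical arrays were sought and 0 pairs found. The members, the 39 gene lists, the tests and the rule for named genes were chosen with earlier results of these data known. The rule named the 20 largest rises and falls, the 6 largest steps each way between times, up to 6 called members a list, every member of lists of up to 12 genes, and 40 fixed genes. The procedure was tested on simulated data, and 15 alternatives were run. Replicate numbers do not pair the arrays (deviations of same-numbered arrays correlated at -0.079 for 5 min and 25 °C, at 0.095 for 5 and 3 min, at 0.351 for 5 and 10 min, and at -0.291 to 0.351 over all pairs of groups in the batch).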

Additional observations from a re-analysis of the deposited data

Results flagged for a closer look

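The change at 42 °C exceeded that at 37 °C after 5 min by at least 2-fold for 6 of 14 chosen genes, by limma's test of the difference. Over all 5449 genes the difference was positive by these limits for 159 (2.92%) and negative for 24 (0.44%). Without a minimum size the counts were 841 and 866. A positive difference also arises where a gene fell less at 42 °C. The 14 genes were chosen with earlier results of these data known, so their share is not to be set against that over all genes. HSP26, SSA4, CTT1, HSP104 and RPN4 also rose more at 42 °C, past the adjusted threshold but below 2-fold. The log2 differences were 2.76 for HSP42, 1.39 for HSP78, 1.55 for BTN2, 1.93 for TSL1, 2.15 for GSY1 and 1.64 for HSP30. The temperatures were run in separate batches, and the part of batch was not tested.

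Of 265 probe sets without a gene symbol, which no comparison above uses, 34 were higher and 8 lower at 42 °C 5 min than at 25 °C by the same limits. Together this was 15.8%, close to the 15.3% of the 5449 genes (8.48% higher and 6.83% lower). The largest rise among them was 5.05 ± 0.15, on a probe set that read 11.65 and 11.60 at 42 °C, against 6.33 and 6.83 at 25 °C.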

How the results depend on the processing

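The count of 834 changed genes was 830 to 849 when any of the 4 arrays was left out (455 to 475 higher, 370 to 378 lower), 835 with only batch A927 or only the 4 arrays, 835 with the replicate number as a block, 832 with array medians subtracted and 813 with quantile normalisation within the batch. Leaving out 1 array gave 79 to 96 genes for 5 against 3 min, 233 to 265 for 10 against 5 min, and 178 to 190 for the difference between temperatures (21 to 34 lower). The replicate block gave 81, 243 and 183. Direction was checked gene by gene only for the genes named by the rule. Among these no called result changed direction under these settings, while some uncalled values near 0 changed sign (HSF1 gave -0.06 without replicate 1 at 42 °C). The minimum size decided the counts most. With none, 3623 genes passed (1675 higher, 1948 lower), 1586 for 5 against 3 min (797 and 789), 2937 for 10 against 5 min (1345 and 1592) and 1707 between temperatures (841 and 866). Testing against a log2 change of 0.5 gave 1305 (663 lower), 84 higher for 5 against 3 min, 425 for 10 against 5 min (220 and 205) and 39 lower between temperatures, where quantile normalisation gave 46. MRPS9, one of the 3 mitochondrial ribosomal protein genes that fell, lost its call under both rescalings (-0.997 and -0.978), MET3 under quantile normalisation (0.99), and TPS3 gained one under both (1.02 and 1.02), and also without replicate 2 of either group (1.05 without that at 42 °C, 1.01 without that at 25 °C). PIG1 gained one under quantile normalisation (-1.03). The difference between temperatures cannot be computed from batch A927 alone, nor the steps between times from the 4 arrays. With 2 arrays a group, the number of arrays limits the precision.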

Other observations

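Genes of meiosis and sporulation, which growing haploid cells do not need, were mostly at or near the floor. Of 20 measured, 3 were higher and 1 lower at 42 °C 5 min, beside 8.48% and 6.83% of all genes. IME2, a meiotic kinase, read 8.64 and 8.39 at 42 °C, against 6.97 and 6.86 at 25 °C, a rise of 1.60 ± 0.10. DMC1, a meiotic recombinase, rose by 1.29 ± 0.14 and DIT2, of spore wall synthesis, by 1.27 ± 0.13, while SSP1 fell by 1.15 ± 0.16. The a-cell gene ASG7 read 9.52 and 9.56 at 42 °C, against 8.06 and 7.80 at 25 °C, a rise of 1.61 ± 0.10.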
